A study of Mus musculus with 6 samples.

Results

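The interferon-stimulated antiviral effector genes are 41 genes listed by name, with earlier results of these data known. They are genes whose products act against viruses and whose transcription is switched on by interferon. They were followed on 6 whole-transcript arrays of KLS cells, which are sorted from bone marrow as positive for Kit and Sca-1 and negative for mature lineage markers, and which include the blood-forming stem cells. A gene entered through array probe sets annotated with its symbol alone or with an older name of it. By this rule 40 of the 41 genes were measured, among 20059 genes in all, and Isg15 was not analysed here because no probe set carried its name alone. The arrays came from 3 wild-type and 3 Dnmt3a+/- samples, and the latter genotype has 1 intact copy of Dnmt3a, an enzyme that places new DNA methylation. No treatment is named, and the labels give no age, sex or strain, no account of how the allele was made, and nothing on whether the samples of a genotype came from separate animals. The p-values therefore speak only of the spread among these arrays, and part of that may be technical. By its title the study is about Dnmt3a haploinsufficiency and myeloid malignancy, and the comparison described here asks whether the interferon-stimulated genes differ between the genotypes.

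Type I interferons bind a receptor of the chains Ifnar1 and Ifnar2, whose kinases Jak1 and Tyk2 pass the signal on. A complex that contains Stat2 and Irf9 then enters the nucleus and binds the interferon-stimulated response element, a pair of GAAA repeats in the promoters of the antiviral genes. Stem cells are known to keep part of this program on without infection, and interferon can drive blood stem cells out of rest.

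The promoters of 31 of the 41 genes were in the RefSeq promoter table (build GRCm38.p6), in 36 windows of 300 bases, from 250 before to 50 after an annotated start. The element was searched as GAAA followed, after any 2 bases, by a second GAAA, on either strand. It was present in 16 of the 36 windows (44.4%) and in 1131 of all 32851 windows of the table (3.44%). The 7 stretches printed next are the 140 bases before the start of genes with matches there, chosen to show a single match, paired matches and the similar pair Oas1a and Oas1g. They run 5′ to 3′ on the strand of the gene, and capitals mark the matches.
Oas3, chr5:120777660-120777799, minus strand: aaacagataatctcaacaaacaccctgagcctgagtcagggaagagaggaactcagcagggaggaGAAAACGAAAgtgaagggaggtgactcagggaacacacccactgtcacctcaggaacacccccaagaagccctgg
Trim30a, chr7:104465194-104465333, minus strand: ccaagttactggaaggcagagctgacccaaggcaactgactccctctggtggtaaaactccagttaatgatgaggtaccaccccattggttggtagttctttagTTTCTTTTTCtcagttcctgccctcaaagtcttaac
Ifit1, chr19:34640749-34640888, plus strand: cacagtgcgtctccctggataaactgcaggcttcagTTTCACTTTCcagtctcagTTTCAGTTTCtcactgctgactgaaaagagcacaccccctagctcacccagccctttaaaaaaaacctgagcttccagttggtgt
Rsad2, chr12:26456453-26456592, minus strand: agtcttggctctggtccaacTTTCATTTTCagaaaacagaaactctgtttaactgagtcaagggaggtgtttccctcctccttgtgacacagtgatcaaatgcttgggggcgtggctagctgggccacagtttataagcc
Oas1a, chr5:120907526-120907665, minus strand: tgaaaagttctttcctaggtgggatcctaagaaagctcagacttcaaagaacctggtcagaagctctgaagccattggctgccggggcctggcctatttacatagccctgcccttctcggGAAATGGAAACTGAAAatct
Oas1g, chr5:120887614-120887753, minus strand: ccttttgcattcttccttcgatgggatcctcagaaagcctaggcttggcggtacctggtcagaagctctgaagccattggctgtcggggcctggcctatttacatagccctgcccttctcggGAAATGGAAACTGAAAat
Bst2, chr8:71537473-71537612, minus strand: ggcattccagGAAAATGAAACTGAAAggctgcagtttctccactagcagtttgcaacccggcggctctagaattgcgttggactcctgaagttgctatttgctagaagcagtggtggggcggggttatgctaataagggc

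Positions count back from -1, the base before the start. The match in Oas3 began at position -75 and that in Trim30a at -36. Rsad2 had 1 match at -120, and Ifit1 had 2 separate ones at -104 and -85. In Oas1a, Oas1g and Bst2, 2 matches overlapped in a run of 3 GAAA repeats, and 5 member windows in all held overlapping matches. The Oas1a and Oas1g stretches were equal at 118 of 138 bases (85.5%) when shifted by 2, and their matches lay within 20 bases of the start. Isg15, whose level was not analysed here, had 3 overlapping matches, at -78, -72 and -66. A match describes the letters and does not show that a factor binds there.

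Array quality bears on what follows. Dnmt3a+/- replicate 2 stood apart from the others, with a mean Pearson correlation across genes of 0.904 with the other arrays, where the rest had 0.938 to 0.949. A member difference that moved by over 1.5 times without it is given both ways. Dnmt3a itself was lower on every Dnmt3a+/- array (8.38, 8.20 and 8.20 on the log2 scale) than on any wild-type array (8.51, 8.70 and 8.50). Its difference was -0.31 (SE 0.12), and 9.05% of all genes were lower without overlap in the same way. No gene of the whole table passed an adjusted p of 0.05 (0%, smallest adjusted p = 0.535, limma). The gate markers were present on all arrays, with wild-type and Dnmt3a+/- means of 10.74 ± 0.06 and 10.62 ± 0.03 for Kit, and of 8.48 ± 0.18 and 8.46 ± 0.13 for Ly6a, which encodes Sca-1 (SD, n = 3 each). Kit was lower without overlap, with a small difference of -0.11 (SE 0.10), and Ly6a overlapped.

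The interferon-stimulated genes were, as a set, lower in Dnmt3a+/- cells. The list was drawn up with earlier results of these data known, so the counts describe it and are not an independent test. The Dnmt3a+/- mean was below the wild-type mean in 35 of 40 genes, where 54.3% of all genes tested were lower. In 18 of the 40 every Dnmt3a+/- array lay below every wild-type array, and the same held for 9.05% of all genes. Only Parp12 was higher without overlap, which held for 6.74% of all genes. The median log2 difference, Dnmt3a+/- minus wild-type, was -0.29 over the members and -0.02 over all genes. The differences were small, and Rtp4 alone was lower by more than 1.5-fold.

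By unadjusted p under 0.05, 14 of the 40 members were lower (4.57% of all genes) and 1 was higher (2.92% of all genes). The lower count was 8 without wild-type replicate 2, 8 without wild-type replicate 3 and 9 when a gene was the median of its probe sets. None passed an adjusted p of 0.05 over all genes. The 12 members with the smallest p all had an adjusted p of 0.631 (limma), and the exact permutation test of a single gene cannot go below 0.1 with 3 against 3 arrays. The gene-by-gene differences below are therefore measurements with their errors, and none is a called change.

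**Figure D1:**
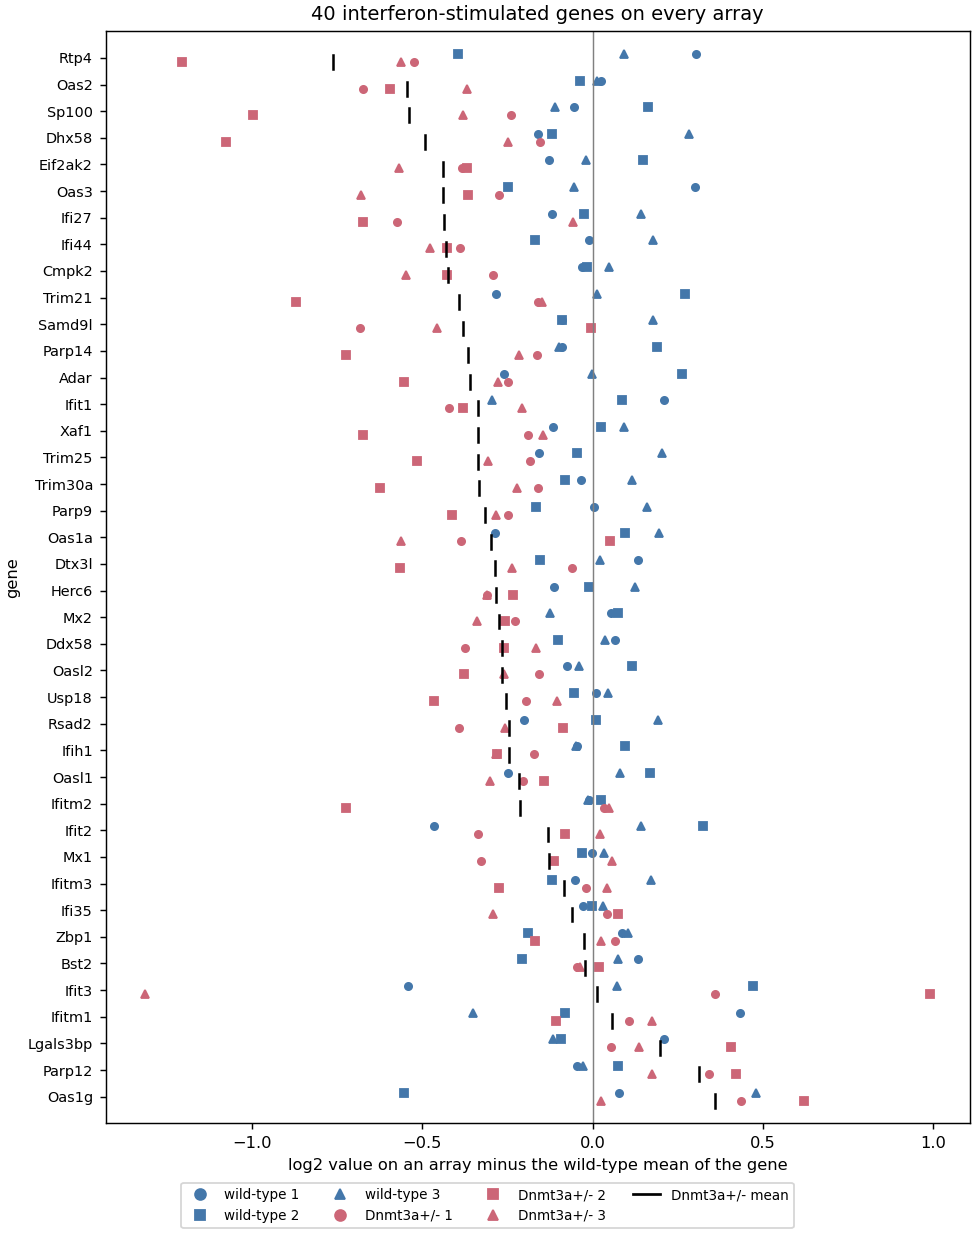
Log2 value of each of the 40 measured interferon-stimulated genes on each array minus the wild-type mean of that gene, on the horizontal axis, with genes sorted by their genotype difference. Blue marks are the 3 wild-type arrays, red marks the 3 Dnmt3a+/- arrays and black ticks the Dnmt3a+/- means. For 35 genes the tick lies left of 0, and for 18 all red marks lie left of all blue ones.

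The shift was present on each Dnmt3a+/- array. The median deviation of the 40 genes from their wild-type means was -0.20, -0.37 and -0.25 on Dnmt3a+/- replicates 1, 2 and 3, and -0.04, -0.02 and 0.05 on wild-type replicates 1, 2 and 3. The wild-type and Dnmt3a+/- medians did not overlap, at -0.00 ± 0.05 and -0.27 ± 0.09 (SD, n = 3 each). Over all genes the array medians stayed between -0.03 and 0.01. On the 3 Dnmt3a+/- arrays, 32, 33 and 31 of the 40 genes lay below their wild-type mean. On the wild-type arrays 26, 23 and 13 did.

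Dnmt3a+/- replicate 2 carried the lowest value of 16 genes, and replicates 3 and 1 carried that of 10 and 7. Without replicate 2, the member median was -0.24 and 33 of 40 genes were lower. Dnmt3a+/- replicate 1, which correlated best with the other arrays, held the highest value of 0 genes. Several members near 0 moved without replicate 2, with Bst2 at -0.04, Ifi35 at -0.13, Ifit3 at -0.48, Ifitm1 at 0.14, Ifitm3 at 0.012 and Zbp1 at 0.046.

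**Figure D2:**
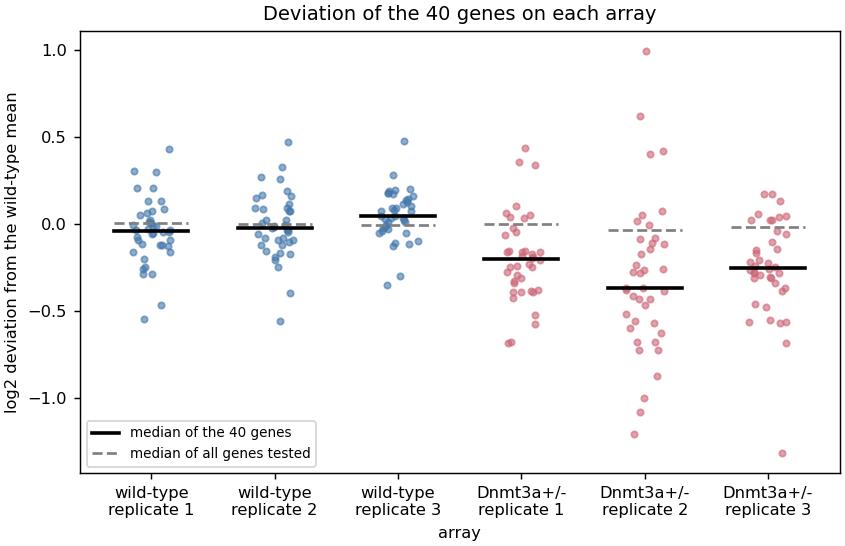
Deviation of the 40 interferon-stimulated genes from their wild-type means (log2, vertical axis) on each of the 6 arrays, with 1 point per gene. Black bars are the medians of the 40 genes and dashed grey bars the medians of all genes tested. The 3 Dnmt3a+/- medians sit at -0.20, -0.37 and -0.25, below the wild-type medians of -0.04 to 0.05.

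The oligoadenylate synthetases sense double-stranded RNA and make a messenger that turns on the RNA-cutting enzyme RNase L. Of the 6 family members, 5 were lower, 3 of them without overlap, and the median difference was -0.28. Over all genes 54.3% were lower and 9.05% lower without overlap. Oas2 had the smallest p of all members and ranked 27 among all genes. It read 8.32, 8.26 and 8.31 on the wild-type arrays and 7.62, 7.70 and 7.93 on the Dnmt3a+/- arrays. Each Dnmt3a+/- value was below each wild-type value, and the wild-type values lay close together. The difference was -0.55 (SE 0.12, 95% confidence interval -0.82 to -0.27, unadjusted p = 0.00175, limma), a fold of 0.685. Oas3, the neighbour of Oas2 on chromosome 5, read 7.84, 7.30 and 7.49 on wild-type arrays and 7.27, 7.18 and 6.86 on Dnmt3a+/- arrays. The groups did not overlap, though wild-type replicate 2 and Dnmt3a+/- replicate 1 nearly met, and the difference was -0.44 (SE 0.17, unadjusted p = 0.0356, limma). Without wild-type replicate 1, its highest array, the Oas3 difference was -0.29.

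Oas1a and Oas1g, the neighbouring copies with the similar promoters printed above, pointed in opposite directions. Oas1a read 8.25, 8.63 and 8.73 on wild-type arrays and 8.15, 8.59 and 7.98 on Dnmt3a+/- arrays, with overlap and a difference of -0.30 (SE 0.19) that was -0.47 without Dnmt3a+/- replicate 2. Oas1g, measured by 2 probe sets, read 6.97, 6.34 and 7.37 on wild-type arrays and 7.33, 7.52 and 6.92 on Dnmt3a+/- arrays. Its arrays were mixed between the genotypes, and the difference of 0.36 (SE 0.27) was 0.23 without Dnmt3a+/- replicate 2. A further 15 probe sets were annotated with both copies. Over those the means of wild-type and Dnmt3a+/- arrays were 8.67 ± 0.05 and 8.54 ± 0.17 (SD, n = 3 each), a difference of -0.13. Because the copies are alike, their separate values are uncertain. Oasl2 and Oasl1, synthetase-like proteins that lie side by side, differed by -0.27 (SE 0.12, no overlap) and -0.22 (SE 0.14).

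The sensors and kinases that recognise foreign RNA or DNA were lower in 6 of 6 genes, 3 of them without overlap, with a median of -0.31. The shares over all genes were 54.3% lower and 9.05% lower without overlap. Eif2ak2 encodes the kinase PKR, which stops translation when it binds double-stranded RNA. Its values were 8.25, 8.52 and 8.35 on wild-type arrays and 7.99, 8.01 and 7.81 on Dnmt3a+/- arrays. The groups did not overlap and the difference was -0.44 (SE 0.12, 95% confidence interval -0.72 to -0.16, unadjusted p = 0.0070, limma). Dhx58, the regulator LGP2 of the RNA sensors, read 7.36, 7.40 and 7.81 on wild-type arrays and 7.37, 6.45 and 7.28 on Dnmt3a+/- arrays. Its lowest value by far was on Dnmt3a+/- replicate 2, and the difference of -0.49 (SE 0.25) was -0.20 without that array. The sensors themselves, Ddx58 (RIG-I) and Ifih1 (MDA5), were lower without overlap, by differences of -0.27 (SE 0.11) and -0.25 (SE 0.11). Adar, the enzyme that edits double-stranded RNA, differed by -0.36 (SE 0.16) with overlap. Zbp1, a sensor of left-handed nucleic acids, differed by -0.03 (SE 0.13). It had 5 of its 8 kept probe sets higher, and its direction changed in some alternative settings.

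Isg15 is a ubiquitin-like protein, and its measured partners were lower without overlap in 3 of 3 genes. The same held for 9.05% of all genes. Herc6, a ligase that attaches it to targets in mice, read 7.39, 7.49 and 7.63 on wild-type arrays and 7.19, 7.27 and 7.19 on Dnmt3a+/- arrays. The groups were separate and the Dnmt3a+/- arrays close together, with a difference of -0.29 (SE 0.11, unadjusted p = 0.0329, limma). With the median of its probe sets in place of the mean, the Herc6 difference was -0.20 (SE 0.20). These probe sets were annotated Herc5, which was taken as an older name of Herc6. Usp18, which removes Isg15 and dampens receptor signalling, differed by -0.26 (SE 0.13), or -0.15 without Dnmt3a+/- replicate 2. Trim25, which modifies RIG-I and other targets, differed by -0.34 (SE 0.14).

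Mx1 and Mx2 belong to a family of dynamin-like GTPases whose working forms trap viral particles or their components. The labels give no strain, so whether these samples carry working forms is not known. Mx2 read 7.00, 7.02 and 6.82 on wild-type arrays and 6.72, 6.69 and 6.60 on Dnmt3a+/- arrays. It did not overlap, with a difference of -0.28 (SE 0.11, unadjusted p = 0.0371, limma). Mx1 differed by -0.13 (SE 0.13), and its Dnmt3a+/- replicate 3 was above all wild-type arrays.

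Among the nucleotide and translation inhibitors, Cmpk2 and Rsad2 are neighbours on chromosome 12. Cmpk2, a mitochondrial nucleotide kinase, read 7.12, 7.14 and 7.20 on wild-type arrays and 6.86, 6.72 and 6.60 on Dnmt3a+/- arrays. The groups did not overlap, with a difference of -0.42 (SE 0.11, 95% confidence interval -0.68 to -0.17, unadjusted p = 0.0055, limma). The value rested on dim probe sets, since only 2 of its 11 passed a filter at the 75th percentile of all probe sets, and over those 2 the difference was 0.09. Rsad2 encodes viperin, which makes a chain-ending nucleotide, and its difference was -0.25 (SE 0.14). Over the median of its probe sets in place of the mean it was 0.04. Samd9l, which restrains translation and growth, differed by -0.38 (SE 0.18). Its Dnmt3a+/- replicate 2 lay between the wild-type arrays, and without it the difference was -0.57.

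The IFIT proteins bind viral RNA ends, and no member was separate between genotypes. Ifit1 differed by -0.34 (SE 0.15), with 4 of its 4 probe sets lower. Ifit2 read 6.73, 7.52 and 7.33 on wild-type arrays and 6.86, 7.11 and 7.22 on Dnmt3a+/- arrays. The lowest array was wild-type, and the difference of -0.13 (SE 0.21) was 0.13 with no filter on dim probe sets. Ifit3 rested on 1 of its 3 probe sets. Its values of 6.18, 7.19 and 6.80 on wild-type arrays and 7.08, 7.72 and 5.41 on Dnmt3a+/- arrays had both extremes in Dnmt3a+/- cells. A difference of 0.01 (SE 0.54, 95% confidence interval -1.24 to 1.26) leaves a wide range.

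The membrane restriction factors showed little difference, with a median of -0.05 over 4 genes (0.026 without Dnmt3a+/- replicate 2) and none separate. Ifitm1, Ifitm2 and Ifitm3, which keep viruses from fusing with cell membranes, lie next to each other on chromosome 7. Ifitm2 read 10.43, 10.46 and 10.42 on wild-type arrays and 10.47, 9.72 and 10.49 on Dnmt3a+/- arrays. Its difference of -0.21 (SE 0.21) was 0.04 without Dnmt3a+/- replicate 2, the array with the low value. Ifitm1 read 9.74, 9.23 and 8.96 on wild-type arrays and 9.42, 9.20 and 9.48 on Dnmt3a+/- arrays, a difference of 0.06 (SE 0.20). The Dnmt3a+/- values lay inside the wild-type range. A further 6 probe sets that name Ifitm1 together with a second gene had a mean difference of 0.21. Ifitm3 differed by -0.08 (SE 0.13). Bst2, the tether that holds budding virus at the cell surface, read 9.51, 9.17 and 9.45 on wild-type arrays and 9.33, 9.39 and 9.33 on Dnmt3a+/- arrays, a difference of -0.02 (SE 0.12).

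The group of PARP enzymes, their partner Dtx3l and TRIM proteins held both directions. Parp14, Dtx3l and Parp9 lie in a row on chromosome 16, and Parp9 and Dtx3l act as a pair that modifies histones and viral proteins. Parp9 read 8.05, 7.88 and 8.21 on wild-type arrays and 7.80, 7.64 and 7.77 on Dnmt3a+/- arrays. The groups did not overlap, and the difference was -0.31 (SE 0.12, unadjusted p = 0.0345, limma). Parp14 differed by -0.37 (SE 0.17, no overlap) and Dtx3l by -0.29 (SE 0.16). Without Dnmt3a+/- replicate 2 these were -0.19 and -0.15. Parp12, an enzyme that blocks viral RNA translation, went the other way, at 7.14, 7.26 and 7.16 on wild-type arrays and 7.53, 7.60 and 7.36 on Dnmt3a+/- arrays. Every Dnmt3a+/- array was higher, with a difference of 0.31 (SE 0.11, 95% confidence interval 0.05 to 0.57, unadjusted p = 0.0251, limma), and 11 of its 14 probe sets were higher.

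Trim21, an antibody receptor inside the cell, read 7.63, 8.18 and 7.93 on wild-type arrays and 7.75, 7.04 and 7.76 on Dnmt3a+/- arrays. Its difference of -0.39 (SE 0.23) was -0.15 without Dnmt3a+/- replicate 2, the array with the low value. Trim30a, which limits innate signalling, differed by -0.34 (SE 0.15) with no overlap, and 11 of its 11 probe sets were lower. Its difference was -0.19 without Dnmt3a+/- replicate 2.

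The remaining induced genes had a median of -0.43 over 7 genes, and of -0.31 without Dnmt3a+/- replicate 2. Rtp4, a receptor transporter that also limits RNA viruses, had the largest difference of the members over all 6 arrays. It read 8.95, 8.25 and 8.74 on wild-type arrays and 8.12, 7.44 and 8.08 on Dnmt3a+/- arrays. The groups did not overlap, and replicate 2 was the lowest array in both genotypes. The difference was -0.76 (SE 0.24, 95% confidence interval -1.31 to -0.22, unadjusted p = 0.0123, limma), a fold of 0.589, and it was -0.54 without Dnmt3a+/- replicate 2, where Samd9l had -0.57. With array weights Rtp4 was at -0.56, Samd9l at -0.62 and Oas2 at -0.61. Ifi44, whose product damps antiviral responses, read 8.32, 8.16 and 8.51 on wild-type arrays and 7.94, 7.90 and 7.85 on Dnmt3a+/- arrays. The Dnmt3a+/- arrays were nearly equal and below all wild-type ones, with a difference of -0.43 (SE 0.12, unadjusted p = 0.0079, limma).

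Sp100, a component of nuclear bodies, read 9.45, 9.67 and 9.40 on wild-type arrays and 9.27, 8.51 and 9.13 on Dnmt3a+/- arrays. The groups did not overlap, and the difference of -0.54 (SE 0.20, unadjusted p = 0.0281, limma) was -0.31 without Dnmt3a+/- replicate 2. Ifi27 read 9.19, 9.28 and 9.45 on wild-type arrays and 8.73, 8.63 and 9.25 on Dnmt3a+/- arrays, with 1 Dnmt3a+/- array inside the wild-type range and a difference of -0.44 (SE 0.18, unadjusted p = 0.0389, limma). Its probe sets came under the current name and an older one, and old annotation can use the name for a neighbouring family member. Both kinds were lower, with differences of -0.55 over 7 probe sets under the current name and -0.35 over 9 under the older one.

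Xaf1, which favours cell death, differed by -0.34 (SE 0.16, no overlap), or -0.17 without Dnmt3a+/- replicate 2. Ifi35 differed by -0.06 (SE 0.13). Lgals3bp, a secreted galectin-binding protein, was also on the higher side. It read 10.27, 9.97 and 9.95 on wild-type arrays and 10.12, 10.47 and 10.20 on Dnmt3a+/- arrays, with overlap and a difference of 0.20 (SE 0.14), which was 0.095 without Dnmt3a+/- replicate 2.

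Single probe sets gave a view of the members that averaging does not. The members had 537 probe sets, of which 472 passed the filter, from 1 to 32 per gene. The Dnmt3a+/- mean was lower in 374 of these (79.2%), against 50.3% of all 628415 probe sets kept. At an unadjusted p under 0.05, 69 (14.6%) were lower and 2 (0.424%) higher, where 3.41% and 2.8% of all probe sets were. None passed when adjusted over all probe sets (smallest adjusted p = 0.799, limma). The shares over all probe sets are a loose yardstick, since only 221209 of the 628415 had 1 symbol. Shares among those alone, or among probe sets of like level, were not computed. In 33 genes most probe sets were lower, and in 7 genes, Rtp4, Dhx58, Oas3, Ifit1, Trim30a, Usp18 and Ifitm2, each of them was. Probe sets of 1 gene read the same RNA, so they are not replicates.

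**Figure D3:**
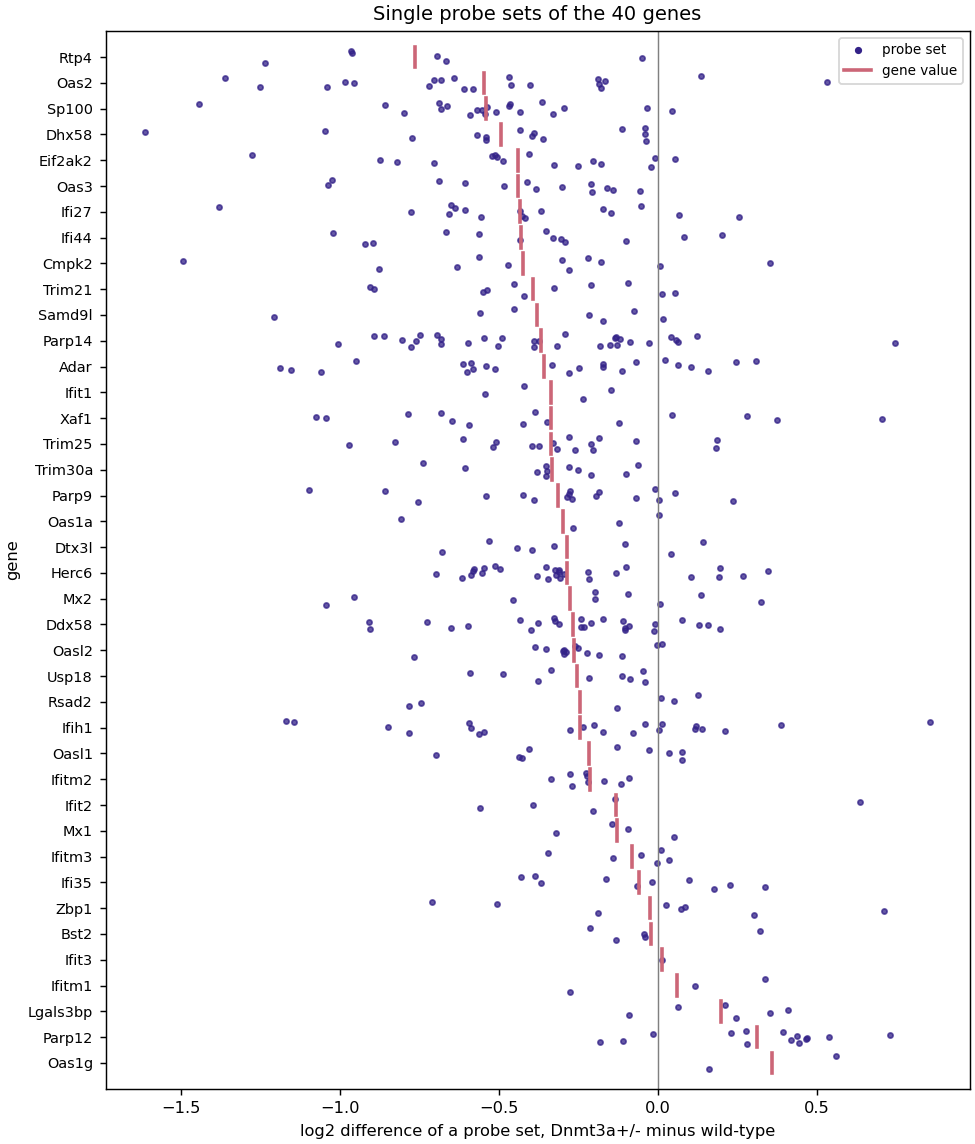
Log2 difference, Dnmt3a+/- minus wild-type, of every kept probe set of the 40 interferon-stimulated genes (points), with the value of the gene as a red tick and genes in the order of that value. Of the 472 points, 374 lie left of 0, and Parp12 has 11 of its 14 on the right.

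The differences depended on level over the whole table, so the members were set beside genes of like level. With all genes sorted into 4 classes of equal size by level, the median difference in the brightest class was -0.13 and 78.7% of genes were lower. In the dimmest class the median was 0.07 and 34.6% were lower. Of the members, 29 of 40 lay above the median gene level. The 19 members in the brightest class had a median of -0.30, with 17 lower and 10 of them without overlap, against 17.9% of all genes there without overlap and lower. In the class below it, 10 of 10 members were lower with a median of -0.33, where all genes had -0.06 and 62.8% were lower. In the 2 dimmer classes the member medians were -0.23 over 8 genes and -0.13 over 3, where all genes had 0.04 and 0.07. The member median was thus below that of all genes in each class.

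After cyclic loess scaling, which evens out such a trend between arrays in part, the all-gene medians from dim to bright were 0.05, 0.03, -0.05 and -0.10. The member medians were then -0.14, -0.23, -0.30 and -0.26. Without Dnmt3a+/- replicate 2 the all-gene medians narrowed to between -0.06 and 0.04, and the member medians were -0.28, -0.23, -0.25 and -0.21.

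**Figure D4:**
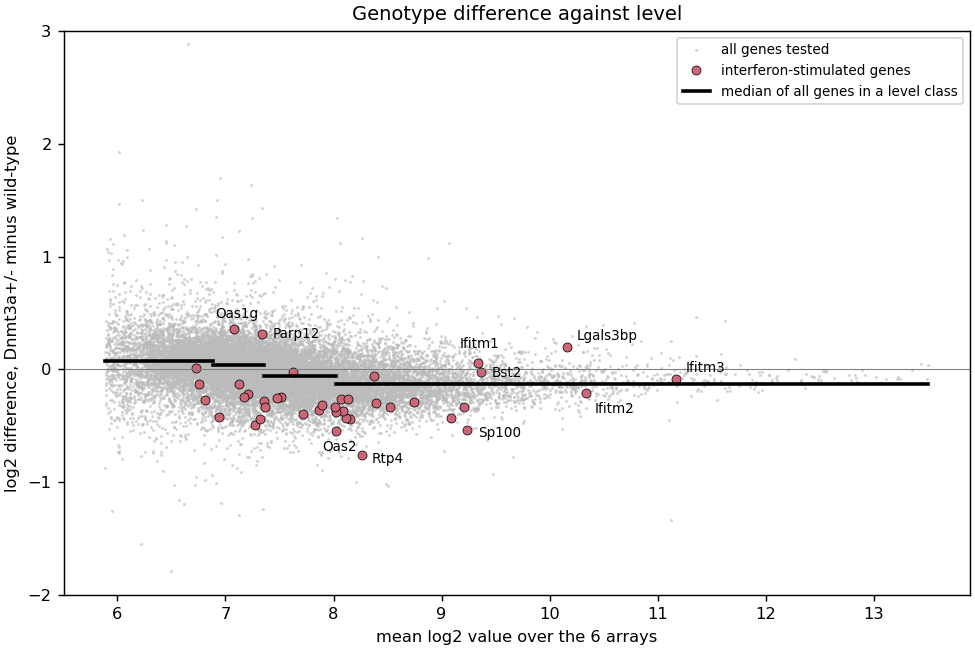
Genotype difference (log2, Dnmt3a+/- minus wild-type) of all 20059 genes against their mean log2 value over the 6 arrays, with grey points for all genes, red points for the 40 interferon-stimulated genes and black bars for the median of all genes in each of 4 level classes of equal size. The bars step from 0.07 to -0.13 as level increases, and in the brightest class 17 of the 19 red points lie below 0.

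The signalling genes upstream of the members were given from lists of pathway genes. All 9 measured receptors and signal transducers were lower, 5 without overlap, with a median of -0.22. Of all genes 54.3% were lower and 9.05% lower without overlap. Of the 9 genes, 8 lay in the brightest level class, 4 of them without overlap and with a median of -0.21, where all genes of the class had -0.13, with 78.7% lower and 17.9% lower without overlap. Irf9, the DNA-binding part of the complex that reads the response element, read 8.25, 8.54 and 8.38 on wild-type arrays and 7.97, 7.64 and 8.14 on Dnmt3a+/- arrays. The groups were separate, with a difference of -0.47 (SE 0.16, unadjusted p = 0.0162, limma). Jak2, a kinase of the interferon gamma receptor and of many cytokine receptors, read 8.16, 8.13 and 8.08 on wild-type arrays and 7.86, 7.61 and 7.70 on Dnmt3a+/- arrays. It also did not overlap, with a difference of -0.40 (SE 0.11, unadjusted p = 0.0071, limma).

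Of 8 transcription factors and feedback inhibitors, 6 were lower, 3 of them without overlap, with a median of -0.22. Over all genes 54.3% were lower and 9.05% lower without overlap. The brightest level class held 4 of the 8, all lower and 3 without overlap, where 78.7% of all genes were lower and 17.9% lower without overlap. Irf1 read 8.31, 8.48 and 8.37 on wild-type arrays and 8.13, 7.81 and 8.10 on Dnmt3a+/- arrays, a difference of -0.37 (SE 0.13) with no overlap. Irf8, a factor of myeloid and dendritic cells, read 8.27, 8.26 and 8.81 on wild-type arrays and 8.17, 7.91 and 7.85 on Dnmt3a+/- arrays, a difference of -0.47 (SE 0.18). The feedback inhibitors Socs1 and Socs3 were not lower, with differences of 0.08 and 0.18.

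Genes of nucleic acid sensing were divided, with 5 of 8 lower, 2 of them without overlap, and a median of -0.09. The shares over all genes were again 54.3% lower and 9.05% lower without overlap. Tbk1, the kinase that activates Irf3, read 8.83, 9.08 and 8.91 on wild-type arrays and 8.65, 8.51 and 8.67 on Dnmt3a+/- arrays, a difference of -0.33 (SE 0.12) with no overlap. Tlr7, a receptor for single-stranded RNA, read 7.49, 7.52 and 8.21 on wild-type arrays and 6.86, 6.88 and 7.57 on Dnmt3a+/- arrays. Its difference was -0.63 (SE 0.26), with 1 Dnmt3a+/- array inside the wild-type range.

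Of 11 listed interferon genes 6 were measured, and Ifnb1 was among those not analysed here. In 2 of the 6 the Dnmt3a+/- mean was lower, and the median was 0.11, or 0.04 without Dnmt3a+/- replicate 2. Ifna11 read 7.16, 7.36 and 7.25 on wild-type arrays and 7.11, 6.68 and 7.07 on Dnmt3a+/- arrays, a difference of -0.31 (SE 0.14) with no overlap, or -0.17 without Dnmt3a+/- replicate 2. Ifnl3, a type III interferon, read 6.95, 7.24 and 6.79 on wild-type arrays and 7.02, 7.73 and 7.43 on Dnmt3a+/- arrays, an overlapping difference of 0.39 (SE 0.20), or 0.23 without that array. In all 4 lists no gene passed adjustment over all genes (adjusted p = 0.631 for each gene named with a p, limma).

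**Figure D5:**
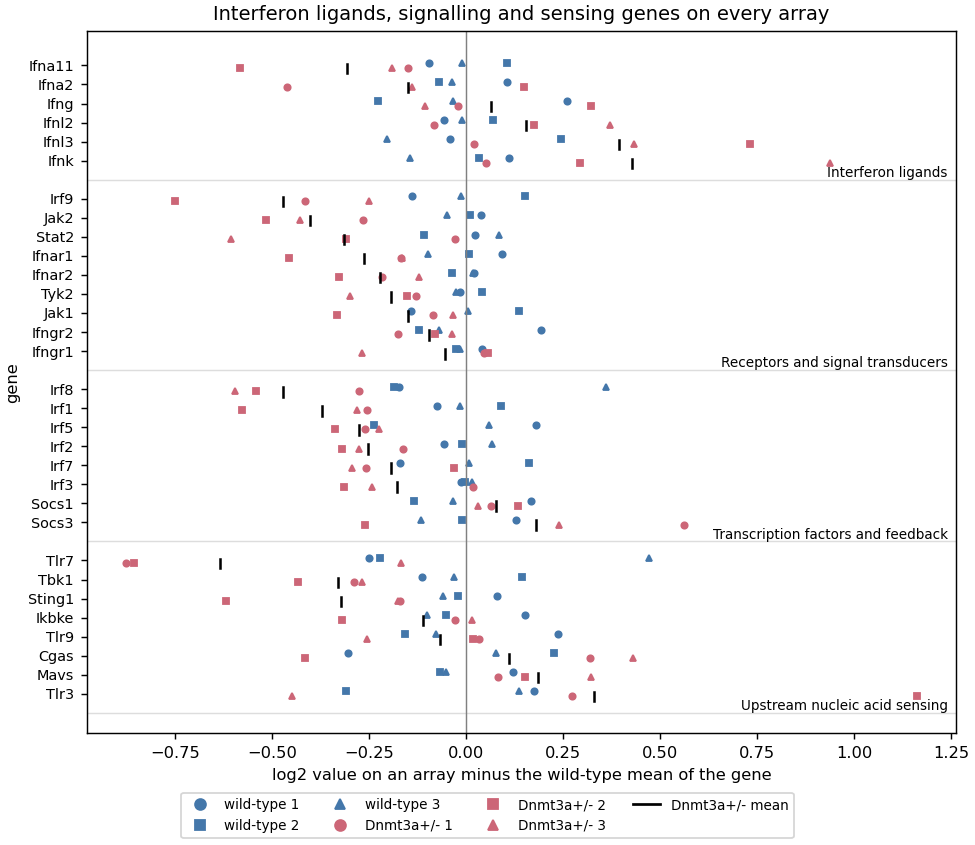
Log2 value on each array minus the wild-type mean, for the measured interferon genes, receptors and signal transducers, transcription factors and feedback inhibitors, and nucleic acid sensing genes. Blue marks are wild-type arrays, red marks Dnmt3a+/- arrays and black ticks Dnmt3a+/- means. All 9 ticks of the receptor list lie left of 0, while those of the interferon genes lie on both sides with a median of 0.11.

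The sort is meant to remove mature lineage cells. Markers of other cell types were read on the same arrays, and in bulk RNA fewer cells of a type and less RNA per cell cannot be told apart. Of 10 markers of plasmacytoid dendritic cells, the main interferon producers, 8 were lower, with a median of -0.06. Their mean level by array ranged from 7.58 to 7.78 in wild-type and from 7.47 to 7.72 in Dnmt3a+/- cells. The defining marker Siglech was dim, at 6.81 ± 0.09 and 6.73 ± 0.19 (SD, n = 3 each), and Irf8 and Tlr7 belong to this list too. Spib and Klk1 of the list were higher without overlap, with differences of 0.61 and 0.68, and Irf8 alone was lower without overlap. Monocyte and macrophage markers had 2 of 10 lower, a median of 0.17, and mean levels of 7.17 to 7.43 in wild-type and 7.20 to 7.45 in Dnmt3a+/- cells. Csf1r of this list was lower without overlap, with a difference of -0.73. Adgre1 and C1qb were higher without overlap, with differences of 0.42 and 0.17. Neutrophil markers had 1 of 8 lower, a median of 0.36, and mean levels of 8.89 to 9.58 and of 9.37 to 10.11. Retnlg and Mmp8 of the neutrophil list were higher without overlap, with differences of 0.98 and 0.64, and none was lower without overlap. Among other lists, 7 of 9 stem and progenitor markers were lower (median -0.12), 3 of 7 B cell markers (0.01), 3 of 9 T and NK cell markers (0.15) and 2 of 5 erythroid markers (0.01). Of all genes 54.3% were lower, 9.05% lower without overlap and 6.74% higher without overlap. In the brightest level class 78.7% of all genes were lower, with a median of -0.13. The part of any of these cells in the lower interferon-stimulated genes was not tested.

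The members were also set side by side by the response element in their promoters. Among the 30 measured genes with a promoter window, 12 of the 14 with a match were lower, with a median of -0.26 and 5 without overlap. Of the 16 with no match, 13 were lower, with a median of -0.29 and 7 without overlap. Over all genes 54.3% were lower and 9.05% lower without overlap, and in the brightest level class 78.7% and 17.9%. The window of Parp12, the 1 member higher without overlap, held 46 CpG pairs, the most among member windows, whose median was 5.5 against 7 over all windows. The next richest belonged to genes with lower means, at 34 CpG pairs in 1 of the windows of Adar, 18 in Trim25 and 17 in both Dtx3l and Eif2ak2. No match in a window says only that these letters are not in those bases.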

How the data were processed

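Total RNA of KLS cells was extracted with TRIzol, and 20 ng was amplified as whole-transcript cDNA and labelled with biotin, per the labels' protocols. The authors deposited linear intensity values, 1 per probe set and array, made with RMA in Partek, per the submitters' processing notes. The arrays were nearly equal in distribution (medians 59.8 to 61.6), so a shift common to most genes would be hidden. Versions, settings and the genome build were not given in the sources used here. The number of arrays limits the precision.

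Log2 was taken with no pseudocount. Of 1256831 probe sets, 318760 (25.4%) had 1 symbol, updated through RefSeq where it was an older name of exactly 1 gene, and 6684 had several and were left out of gene values. This includes 28 that name a member. A gene was the mean of its probe sets whose mean over all arrays exceeded the median of all probe sets (log2 5.89). Levels of different genes were used to sort genes into level classes, to average marker lists on each array and to call Siglech dim.

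Genotypes were compared over all 20059 genes and all 628415 kept probe sets with limma 3.58.1 (R 4.3.3, lmFit and eBayes, two-sided, no covariate, Benjamini-Hochberg over the whole table) and single genes with an exact permutation test (scipy 1.17.1). The fit was tested on simulated data. The members, roles, pathway lists, markers and alternatives were chosen with earlier results of these data known, so no test was made over the set. Values on every array are given for the 12 members of smallest p, the members with a positive difference, the largest difference and those with an SD over 0.4 in a genotype, and for the 2 genes of smallest p in each pathway list. Values on every array of Oas1a and Bst2 were added after they were seen. Alternatives were no filter, a filter at the 75th percentile, the median of probe sets, quantile and cyclic loess scaling, a variance trend with robust estimation, array weights, replicate blocks, symbols as given and leaving out each array.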

Additional observations from a re-analysis of the deposited data

How the results depend on the processing

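In all 15 alternative settings 0 genes passed adjustment over all genes by limma, where 1502 had an unadjusted p under 0.05 in the reported fit and 925 to 2593 in the alternatives. The smallest adjusted p of a member in any setting was 0.288, with array weights. The member median kept its direction, from -0.24 without Dnmt3a+/- replicate 2 to -0.33 without wild-type replicate 1, and between 32 and 36 members were lower. Members lower without overlap numbered 12 with the median of probe sets and up to 26 without wild-type replicate 1. Groups separate more easily when an array is left out, so the higher counts there are no sign of a firmer result. The shares of all genes lower without overlap in these settings are not given here. Members lower at an unadjusted p under 0.05 numbered 9 with the median of probe sets, and 8 to 12 when single arrays were left out. They numbered 16 with the filter at the 75th percentile and 16 with array weights. There 1241 and 2593 genes of the whole table had such a p in either direction. With the replicate block the member count was 10 and the member median -0.29. Deviations of same-numbered arrays correlated at -0.05, -0.09 and 0.11, so the numbers were not taken as pairs.

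The direction of 30 members was the same in every setting. The cause of the sign changes in the others was not tested. Without a filter on dim probe sets Ifit2 was 0.13 and Ifit3 -0.040. With the filter at the 75th percentile, which left 39 members, Cmpk2 was 0.087, Ifit2 0.037 and Zbp1 0.12. With the median of probe sets Rsad2 was 0.040 and Zbp1 0.31. Quantile scaling gave 0.0078 for Bst2 and 0.0024 for Zbp1, cyclic loess 0.025 for Bst2 and -0.0029 for Ifit3, and array weights 0.035 for Zbp1. Leaving out single arrays gave -0.36 to 0.031 for Ifit2, -0.48 to 0.68 for Ifit3, -0.12 to 0.046 for Zbp1, -0.13 to 0.044 for Bst2, -0.12 to 0.27 for Ifitm1, -0.15 to 0.012 for Ifitm3, -0.34 to 0.040 for Ifitm2 and -0.13 to 0.057 for Ifi35.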
